A study of Homo sapiens and Mus musculus with 17 samples.

Results

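The mRNAs of 10 hormones and signalling proteins that fat secretes were followed in brown adipose tissue of mice whose brown adipocytes carry a deletion in an endoplasmic reticulum quality control complex. The members are the adipokines Adipoq, Cfd, Retn and Lep, the brown fat factors Angptl4, Nrg4, Vegfa and Bmp8b, and the stress-induced hormones Fgf21 and Gdf15. They were chosen by gene symbol, and each matched 1 row among the 55491 genes of the brown adipose tissue table. The series compares wild-type (WT) tissue with tissue lacking SEL1L or HRD1, the adaptor and the ubiquitin ligase of the main pathway that clears misfolded proteins from the endoplasmic reticulum (ERAD). Polyadenylated RNA was sequenced from brown adipose tissue of 12-week-old C57BL/6J mice, with 1 library per mouse. There were 3 WT libraries, 3 labelled Sel1L KO (Sel1l flox/flox with Ucp1-Cre) and 2 labelled Hrd1 KO (Syvn1 flox/flox with Ucp1-Cre, Syvn1 being the gene of HRD1). The Ucp1 promoter drives Cre in brown adipocytes, so vessel, nerve, immune and stromal cells of the tissue keep both genes.

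Brown fat burns fuel for heat and also acts as an endocrine organ. Adiponectin, leptin, resistin and complement factor D (adipsin) are made by adipocytes of all kinds and released through the secretory pathway, where adiponectin is folded and assembled into multimers inside the endoplasmic reticulum. Brown adipocytes add factors that act on liver, vessels and nerves, among them neuregulin 4, VEGF-A and BMP8B. FGF21 and GDF15 are made by many tissues under metabolic or protein-folding stress, and the transcription factors ATF4 and CHOP (gene Ddit3) are known activators of both genes.

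All values are FPKM, an estimate of transcript abundance per transcript length and per library total, as deposited unless stated otherwise. Changes are differences between group means of log2(FPKM + 0.1). Adding 0.1 shrinks the fold of genes with low values. The targeted genes went against the labels in 3 of the 5 knockout libraries. Sel1l read 9.10 to 12.9 FPKM in WT, 25.2, 8.17 and 8.38 in the libraries labelled Sel1L KO and 57.6 and 65.2 in those labelled Hrd1 KO. Syvn1 read 5.2 to 5.65 in WT, 118, 16.6 and 9.96 in the libraries labelled Sel1L KO and 14.1 and 13.8 in those labelled Hrd1 KO. The values were below every WT library for Sel1l in Sel1L KO libraries 2 and 3, and above every WT library for Sel1l in Sel1L KO library 1 and for Syvn1 in both Hrd1 KO libraries. Gene-level FPKM does not show whether a transcript carries the deletion, so all directions below are given by label. The brown adipocyte markers Ucp1, Cidea and Fabp4 were abundant in all 8 libraries, the lowest value being 1138 FPKM for Ucp1 in library 1 labelled Hrd1 KO. Ucp1, Dio2 and Fabp4 lay below every WT library in both libraries labelled Hrd1 KO, and Adrb3 and Plin1 lay above. The rest of the 9 listed markers overlapped WT. Of all genes, 5.79% lay below and 51.1% above in this way. Depth in reads is unknown from FPKM, and relative depth spanned 1.69 times. The median gene of 12473 tested lay 0.42 (log2) higher in the libraries labelled Hrd1 KO than in WT and 0.09 higher in those labelled Sel1L KO. Median-ratio scaling, which sets each library to its typical ratio to the geometric mean, brought these medians to -0.02 and -0.00, and both scales are given wherever the scale matters. Library 1 labelled Sel1L KO stood apart from the other 2 of its label in several members, and the results it changes most are also given without it.

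No member passed the threshold of the study for this tissue (adjusted p under 0.01, limma over the 12473 genes) in any of the 4 comparisons, of 9 members tested. Bmp8b did not reach an FPKM of 1 in 2 libraries and was not tested. Fgf21 and Gdf15 passed that filter only through the knockout libraries, so counts over the tested members favour higher values. Of all genes, 0.289% passed as higher and 0.0802% as lower for the label Hrd1 KO against WT, and 0.0882% and 0.016% in those labelled Sel1L KO. The shares were 0.00802% higher and 0.0321% lower for Hrd1 KO against Sel1L KO, and 0.321% and 0.0401% for both knockouts against WT. At an unadjusted p under 0.05 as deposited, 4 members passed as higher and 0 as lower in Hrd1 KO, against 25.4% and 2.02% of all genes. The counts were 2 and 0 in Sel1L KO (12.7% and 5.08% of all genes), 2 and 0 between the knockouts (15.5% and 1.18%), and 4 and 0 for both knockouts (21.7% and 3.48%). After median-ratio scaling they were 4 and 3 in Hrd1 KO (7.36% and 10.8%), 2 and 1 in Sel1L KO (8.41% and 7.95%), 2 and 1 between the knockouts (4.49% and 5.9%), and 4 and 2 for both knockouts (8.61% and 10.8%). At an adjusted p under 0.05, Retn and Vegfa passed as higher for the label Hrd1 KO, a threshold that 4.38% of all genes passed in that direction. Vegfa, Fgf21 and Gdf15 were higher over both knockouts, where 3.76% of all genes passed. At either adjusted threshold, 0 members passed in any comparison after scaling. All comparisons with WT share the same 3 WT libraries.

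**Figure D1:**
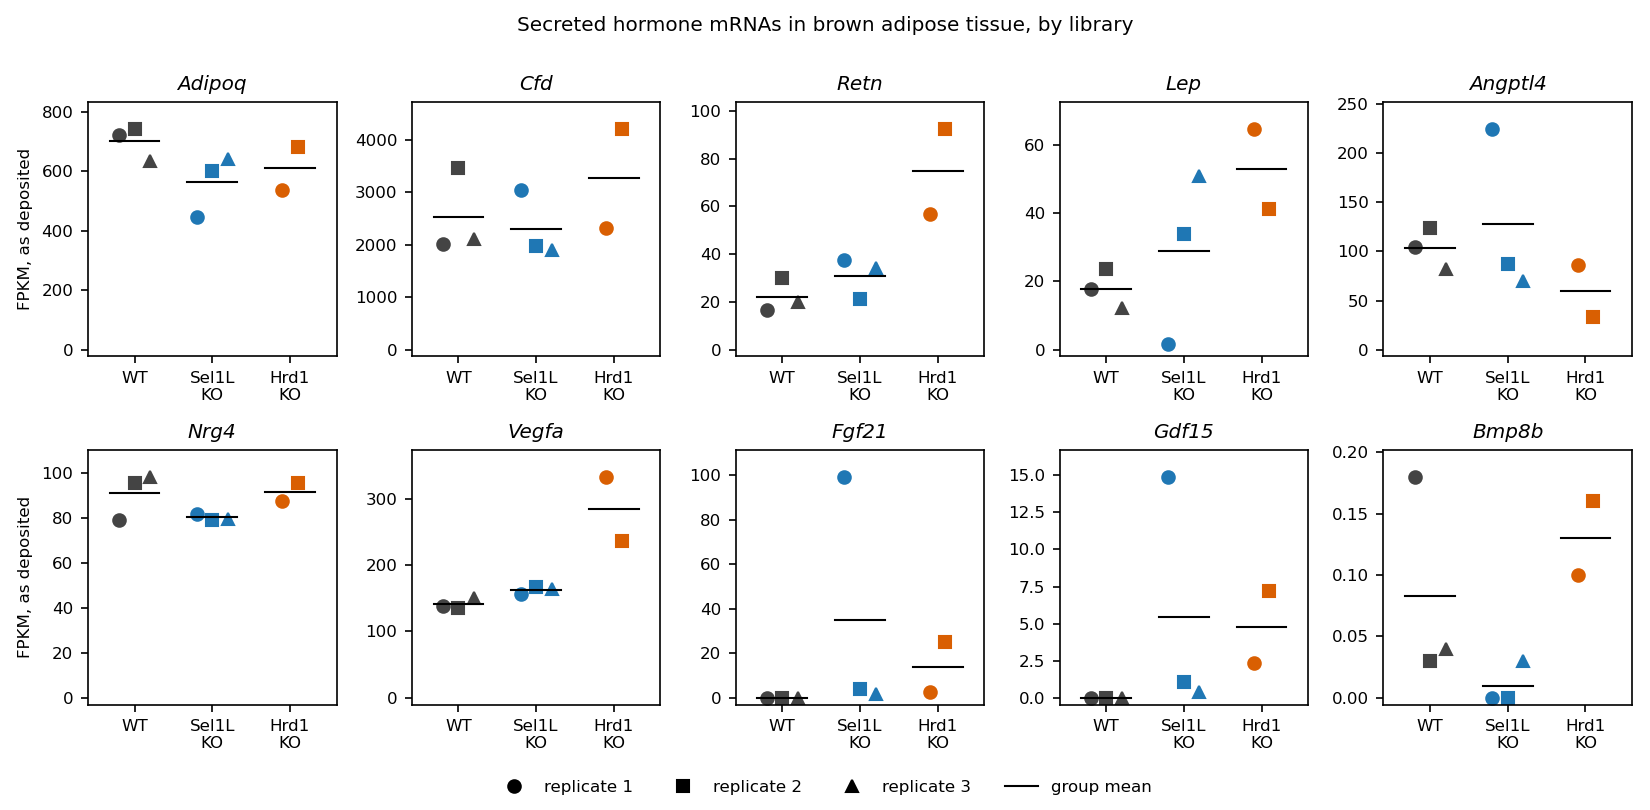
FPKM as deposited (vertical axis, linear) of the 10 members in each library, grouped by genotype label, with symbols for the replicate number and a line at the group mean. Fgf21 and Gdf15 are listed at 0 in all 3 WT libraries, the 2 libraries labelled Hrd1 KO lie above WT for Retn, Lep and Vegfa, and library 1 labelled Sel1L KO is the highest of the 8 for Fgf21, Gdf15 and Angptl4 and the lowest for Adipoq and Lep.

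In WT tissue the members spanned a wide range of levels. Cfd was the most abundant with 2531 ± 811 FPKM (SD, n = 3) and ranked 37th among all genes. Adipoq followed with 700 ± 57.1 and ranked 147th. Vegfa read 141 ± 7.65 and lay above Angptl4 (103 ± 21.0) in each WT library. Angptl4 and Nrg4 (90.8 ± 10.5) overlapped, as did Retn (22.1 ± 6.95) and Lep (17.9 ± 5.83). Bmp8b read 0.0833 ± 0.0839, and Fgf21 and Gdf15 were listed at 0. The order of the tested members was thus set by the 3 WT libraries except between these overlapping neighbours.

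Adipoq encodes adiponectin, the most abundant fat-derived hormone in blood (chr16:23146536-23158028, plus strand, GRCm38). It read 722, 743 and 635 FPKM in WT, 446, 602 and 641 in the libraries labelled Sel1L KO and 536 and 682 in those labelled Hrd1 KO. The groups overlapped as deposited, with the lowest value in Sel1L KO library 1. The change was -0.21 (SE 0.19, adjusted p = 0.498, limma) for Hrd1 KO and -0.33 (SE 0.17, adjusted p = 0.374) for Sel1L KO. After median-ratio scaling the 3 WT libraries (675 to 835) lay above all 5 knockout libraries (410 to 646), and the changes were -0.66 (adjusted p = 0.149) and -0.43 (adjusted p = 0.300). Over both knockouts the scaled change was -0.54 (95% interval -0.92 to -0.17, adjusted p = 0.126). Of 3 genes that assemble adiponectin in the endoplasmic reticulum (Erp44, Ero1l and Gstk1), 0 passed either threshold in the comparisons with WT. Ero1l, the oxidase that forms disulfide bonds, read 8.26 to 10.6 FPKM in WT, 149, 21.0 and 11.4 in the libraries labelled Sel1L KO and 36.3 and 27.3 in those labelled Hrd1 KO.

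Cfd encodes adipsin, the serine protease that starts the alternative complement pathway (chr10:79890853-79892655, plus strand). It read 2014, 3466 and 2113 FPKM in WT, 3037, 1977 and 1907 in the libraries labelled Sel1L KO and 2318 and 4206 in those labelled Hrd1 KO. Values within each group differed by 1.59 to 1.81 times, and all groups overlapped. The change in Hrd1 KO was 0.35 (SE 0.34, adjusted p = 0.517) and turned to -0.10 after scaling. In Sel1L KO it was -0.12 (95% interval -0.82 to 0.58).

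Retn encodes resistin, an adipocyte hormone of mice that impairs insulin action (chr8:3655770-3660110, plus strand). It read 16.5, 29.9 and 19.9 FPKM in WT, 37.3, 21.2 and 34.2 in the libraries labelled Sel1L KO and 56.8 and 92.5 in those labelled Hrd1 KO. Both Hrd1 KO libraries lay above all 6 others, whereas Sel1L KO overlapped WT. The change in Hrd1 KO was 1.76 (95% interval 0.96 to 2.55, adjusted p = 0.034) as deposited and 1.31 (0.40 to 2.22, adjusted p = 0.144) after scaling. In Sel1L KO it was 0.49 (SE 0.31, adjusted p = 0.463). The difference between the 2 knockouts was 1.27 (95% interval 0.48 to 2.06) with an unadjusted p of 0.00595 and an adjusted p of 0.189 from limma.

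Lep encodes leptin, the satiety hormone, which white adipocytes make in larger amounts than active brown ones (chr6:29060220-29073877, plus strand). It read 17.7, 23.8 and 12.1 FPKM in WT, 1.61, 33.9 and 51.0 in the libraries labelled Sel1L KO and 64.7 and 41.2 in those labelled Hrd1 KO. All knockout libraries except Sel1L KO library 1 lay above WT, and that library was the lowest of the 8, with a 31.6 times spread inside its group. The change was 1.58 (SE 1.24, adjusted p = 0.423) in Hrd1 KO and -0.27 (SE 1.11, adjusted p = 0.934) in Sel1L KO. Without Sel1L KO library 1 the change in Sel1L KO turned to 1.27 (adjusted p = 0.0691), that in Hrd1 KO had an adjusted p of 0.0142, and over both knockouts it was 1.42 (adjusted p = 0.0131). Adrb3, the beta3-adrenergic receptor, was also lowest in that library, with 6.09 FPKM against 37.4 to 78.5 in the 7 others.

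Ratios inside a library need no scaling between libraries. Lep stood at 1.90 to 3.20% of Adipoq in the WT libraries, at 0.361, 5.64 and 7.95% in those labelled Sel1L KO and at 12.1 and 6.04% in those labelled Hrd1 KO. Retn stood at 2.29 to 4.02% of Adipoq in WT and at 10.6 and 13.6% in Hrd1 KO, with 8.37, 3.51 and 5.33% in Sel1L KO. The ratio of Cfd to Adipoq overlapped between all groups (2.79 to 4.67 in WT, 2.97 to 6.81 in Sel1L KO, 4.32 and 6.17 in Hrd1 KO). The choice of Adipoq as the denominator was made with the values known.

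**Figure D2:**
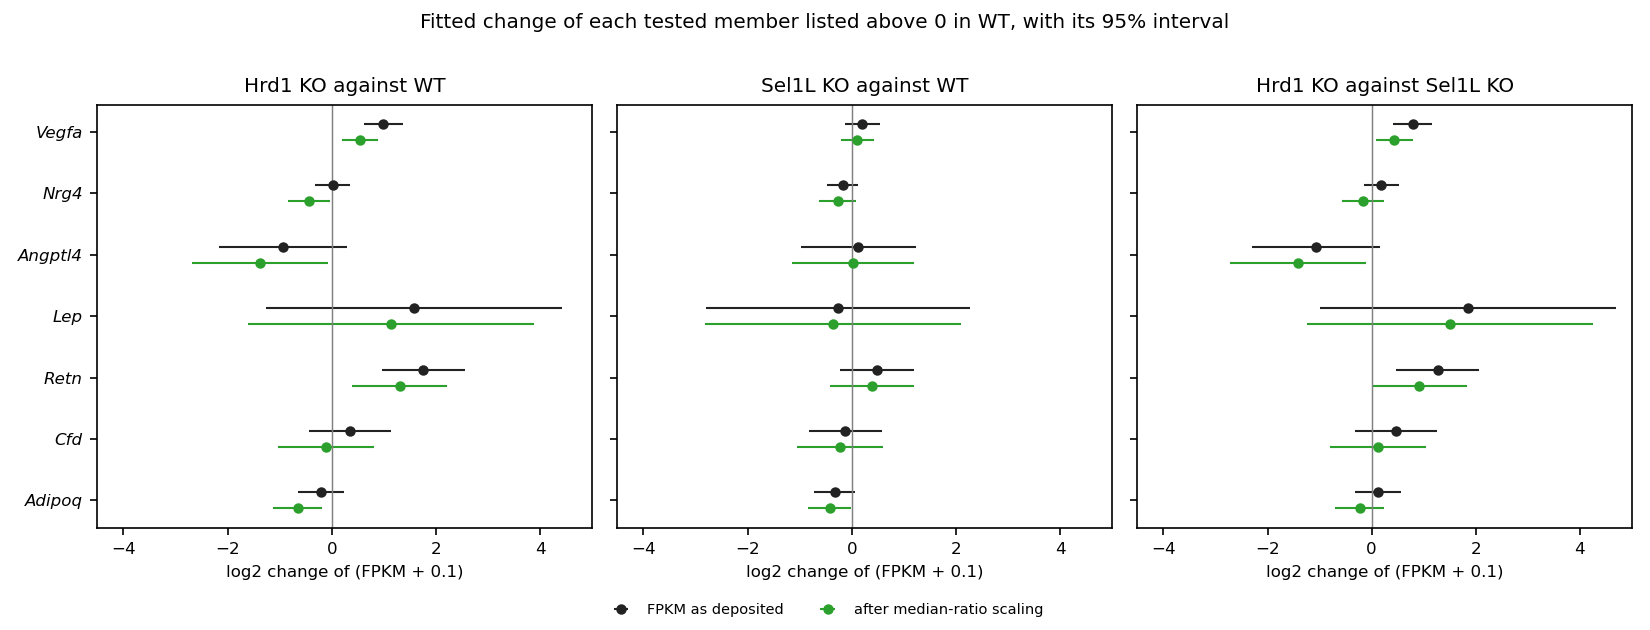
Fitted change in log2(FPKM + 0.1) on the horizontal axis, with its 95% interval from limma, for the 7 tested members listed above 0 in WT, in 3 comparisons, as deposited (black) and after median-ratio scaling (green). Scaling moves every value of Hrd1 KO against WT towards lower levels, so that Nrg4 changes from 0.01 to -0.44 and Vegfa from 0.99 to 0.54, and the intervals of Lep are the widest.

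Vegfa encodes the main growth factor of blood vessels, which brown fat makes when active or short of oxygen (chr17:46016993-46032369, minus strand). It read 138, 135 and 150 FPKM in WT, 156, 167 and 164 in the libraries labelled Sel1L KO and 333 and 236 in those labelled Hrd1 KO. The 3 groups did not overlap on either scale, but after scaling the highest WT value (159) lay just below the lowest Sel1L KO value (160). Of all genes, 12.8% lay above WT in every Sel1L KO library after scaling. The level in Hrd1 KO was 1.99 times that of WT (log2 0.99, 95% interval 0.61 to 1.37, adjusted p = 0.0218, limma), and 1.45 times after scaling (log2 0.54, interval 0.19 to 0.89, adjusted p = 0.126). In Sel1L KO it was 1.15 times that of WT as deposited (log2 0.20, interval -0.14 to 0.54, adjusted p = 0.525). After scaling it was 1.08 times that of WT (log2 0.11, interval -0.21 to 0.42, adjusted p = 0.736). Hrd1 KO exceeded Sel1L KO by 0.79 (interval 0.41 to 1.17, unadjusted p = 0.00133, adjusted p = 0.138 in limma). Of the hypoxia transcription factors, Hif1a (adjusted p = 0.254) and Epas1 (adjusted p = 0.761) did not pass either threshold in Hrd1 KO. Of the VEGF receptors, Kdr read 14.8 to 18.1 FPKM in WT, 14.0, 28.1 and 30.7 in Sel1L KO and 37.0 and 25.4 in Hrd1 KO, with an adjusted p of 0.143 in Hrd1 KO.

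Angptl4 encodes a secreted inhibitor of lipoprotein lipase that is induced by fasting and fatty acids (chr17:33773750-33781830, minus strand). It read 105, 124 and 81.7 FPKM in WT, 225, 87.6 and 70.0 in the libraries labelled Sel1L KO and 85.7 and 33.1 in those labelled Hrd1 KO. Sel1L KO library 1 was the highest of the 8 and Hrd1 KO library 2 the lowest. The change in Hrd1 KO was -0.93 (SE 0.54, adjusted p = 0.286), with overlapping groups as deposited. After scaling, Hrd1 KO (28.5 and 65.5) lay below WT (86.8 to 137) with a change of -1.38 (interval -2.69 to -0.08, adjusted p = 0.250). The change in Sel1L KO was 0.13 and turned to -0.38 (adjusted p = 0.579) without Sel1L KO library 1.

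Nrg4 encodes neuregulin 4, a brown fat factor that acts on liver and nerve through ERBB receptors (chr9:55220222-55326844, minus strand). It was the steadiest member, with 78.8, 95.4 and 98.1 FPKM in WT, 81.8, 79.2 and 79.5 in the libraries labelled Sel1L KO and 87.2 and 95.5 in those labelled Hrd1 KO. The highest library exceeded the lowest 1.25 times. Groups overlapped, with a change of 0.01 in Hrd1 KO (interval -0.32 to 0.35) and -0.17 in Sel1L KO (interval -0.47 to 0.13). After scaling the change in Hrd1 KO turned to -0.44 (interval -0.83 to -0.04, adjusted p = 0.234), with 66.6 and 82.2 FPKM against 91.1 to 106 in WT. The gene overlaps Fbxo22 on the opposite strand by 4212 bases.

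Bmp8b encodes a bone morphogenetic protein that raises the response of brown fat to nerve signals (chr4:123105165-123132099, plus strand). It was near the detection limit, with 0.18, 0.03 and 0.04 FPKM in WT, 0, 0 and 0.03 in the libraries labelled Sel1L KO and 0.10 and 0.16 in those labelled Hrd1 KO. No direction was read from these values. Its close paralog Bmp8a was listed at 0 in all 8 libraries, and estimated assignment leaves the split of reads between the 2 genes uncertain.

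The stress hormones were the members listed at 0 in WT and above 0 in all knockout tissue. Fgf21 encodes a hormone of energy balance that acts through FGFR1 and its co-receptor KLB (chr7:45613886-45615490, minus strand). It was listed at 0 in all 3 WT libraries and read 99.1, 4.01 and 1.85 FPKM in those labelled Sel1L KO and 2.51 and 25.1 in those labelled Hrd1 KO. Every knockout library lay above every WT library, with a 53.6 times spread inside Sel1L KO and 9.99 times inside Hrd1 KO. In limma the adjusted p was 0.0582 for Hrd1 KO, 0.0741 for Sel1L KO and 0.0325 for both knockouts against WT, and 0.117, 0.103 and 0.0581 after scaling. With WT at 0 these values depend on the pseudocount. For both knockouts the adjusted p of Fgf21 was 0.117 with a pseudocount of 1 and 0.0136 with 0.01, and with 0.01 it also passed 0.05 in Hrd1 KO (0.0242) and Sel1L KO (0.0346). No fold is given against a group listed at 0.

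Gdf15 encodes a stress hormone that lowers food intake through the brainstem receptor GFRAL (chr8:70629393-70632456, minus strand). It was likewise listed at 0 in all 3 WT libraries, and read 14.9, 1.06 and 0.40 FPKM in those labelled Sel1L KO and 2.37 and 7.18 in those labelled Hrd1 KO. All 5 knockout libraries again lay above WT. The adjusted p was 0.0526 for Hrd1 KO, 0.114 for Sel1L KO and 0.0405 for both knockouts, and 0.111, 0.149 and 0.0695 after scaling. For both knockouts it was 0.126 with a pseudocount of 1 and 0.0145 with 0.01, and with 0.01 Gdf15 passed 0.05 in Hrd1 KO (0.0239) and Sel1L KO (0.0483). Without Sel1L KO library 1, the adjusted p for Hrd1 KO was 0.00436 for Fgf21 and 0.00378 for Gdf15, and for both knockouts 0.00409 and 0.00575. For Sel1L KO it was 0.0322 and 0.0657. The values for Hrd1 KO and for both knockouts passed the threshold of 0.01, with Vegfa in Hrd1 KO (adjusted p = 0.00603). However, Sel1L KO library 1 was singled out with its values known, and no member passed when another library was left out instead. The number of all genes called higher without Sel1L KO library 1 also went from 36 to 727 in Hrd1 KO and from 40 to 549 for both knockouts.

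In the whole table, 44 genes were listed at 0 in all 3 WT libraries and above 0 in all 5 knockout libraries, and 7 of these reached the filter of 1 FPKM in 2 libraries. None of the 44 had a higher mean over the knockout libraries than Fgf21, and 2 had a higher mean than Gdf15, namely Fgf21 itself and Gm12840. All 3 genes were highest in Sel1L KO library 1 (99.1, 14.9 and 27.3 FPKM for Fgf21, Gdf15 and Gm12840), so these means rest largely on that library. Gm12840 read 0.26 to 1.40 in the other knockout libraries. Of 8 genes that every cell uses, 0 were listed at 0 in any library. Fgf21 exceeded Gdf15 by 6.66, 3.78 and 4.63 times in the libraries labelled Sel1L KO and by 1.06 and 3.49 times in those labelled Hrd1 KO. In Sel1L KO library 1, Fgf21 was more abundant than Nrg4 (81.8 FPKM).

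**Figure D3:**
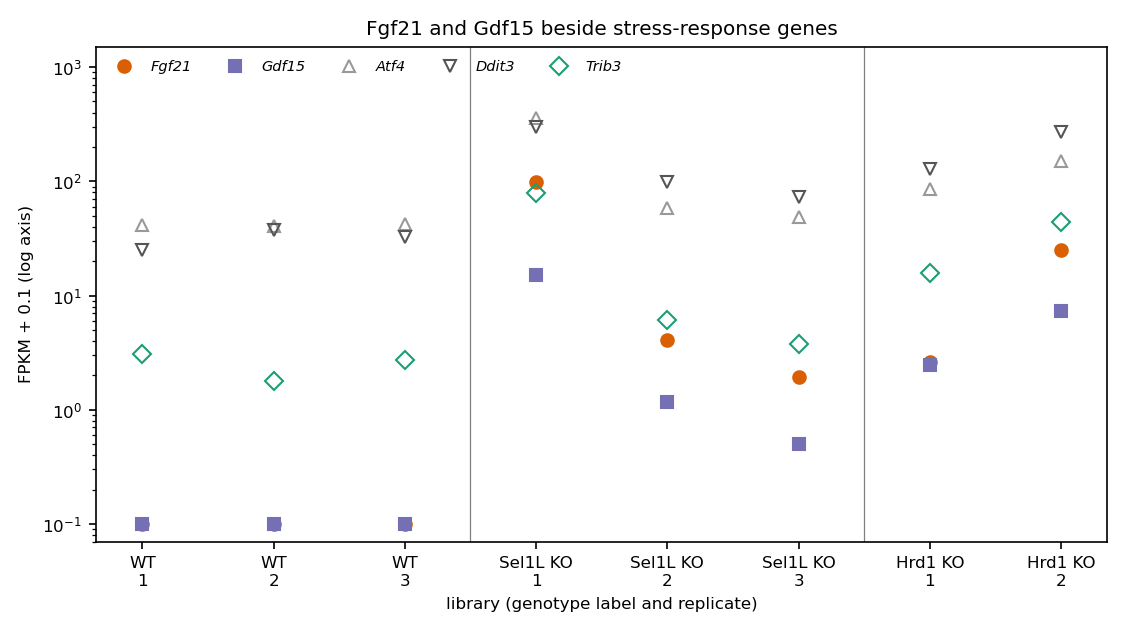
FPKM + 0.1 on a log axis in each of the 8 libraries for Fgf21 and Gdf15 (filled) and for Atf4, Ddit3 and Trib3 (open). Fgf21 and Gdf15 sit at the 0.1 floor in WT, and Sel1L KO library 1 is the highest and Hrd1 KO library 2 the next for all 5 genes.

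The known upstream factors and companion targets were described over the same libraries. Atf4 read 40.8 to 42.1 FPKM in WT, 362, 58.6 and 48.3 in the libraries labelled Sel1L KO and 85.0 and 152 in those labelled Hrd1 KO. Ddit3 read 25.1 to 37.4 in WT, 298, 98.3 and 72.7 in Sel1L KO and 128 and 269 in Hrd1 KO. Trib3, a pseudokinase induced by both, read 1.70 to 2.95 in WT, 78.9, 5.97 and 3.64 in Sel1L KO and 15.6 and 44.0 in Hrd1 KO. Gdf15, Atf4, Ddit3 and Trib3 placed the 5 knockout libraries in the same order, from Sel1L KO library 1 through Hrd1 KO libraries 2 and 1 to Sel1L KO libraries 2 and 3. Fgf21 differed from this only in that Sel1L KO library 2 (4.01) exceeded Hrd1 KO library 1 (2.51). Among the other listed stress and hypoxia factors and integrated stress response targets, Atf6, Chac1 and Sesn2 followed the order of Gdf15. Atf3, Xbp1, Hif1a, Epas1, Asns, Psat1, Phgdh, Slc7a11 and Aldh1l2 did not. Among the 5 knockout libraries, Aldh1l2 (1.01 FPKM) and Epas1 (34.7) were lowest in Sel1L KO library 1, and Phgdh (21.3) in Hrd1 KO library 2. The order was thus not common to all listed stress genes. The libraries share their depth and composition, so the order is a description.

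Among 7 stress and hypoxia transcription factors, Xbp1, the factor of the IRE1 arm of the unfolded protein response, passed the threshold in Hrd1 KO (2.10, SE 0.26, adjusted p = 0.00934) and over both knockouts (adjusted p = 0.00662), and 0 fell. The median change of the 7 in Hrd1 KO was 1.02 against 0.42 for all genes. Ddit3 passed 0.05 in Hrd1 KO (2.57, adjusted p = 0.0456). Of 7 tested integrated stress response targets, 0 passed 0.01 and 3 enzymes of serine and folate metabolism, Psat1, Phgdh and Aldh1l2, passed 0.05 in Hrd1 KO with changes of 3.23, 1.95 and 3.24. The median of these 7 was 2.36 in Hrd1 KO and 2.30 in Sel1L KO. As deposited, Xbp1 (adjusted p = 0.0318), Phgdh (0.0319) and Aldh1l2 (0.0428) passed 0.05 as higher in Sel1L KO as well. Of all genes, 4.38% passed 0.05 as higher in Hrd1 KO and 0.689% in Sel1L KO. After median-ratio scaling 0 of the genes in these lists passed either threshold in Hrd1 KO, and Phgdh passed 0.05 in Sel1L KO (adjusted p = 0.0382). Over both knockouts Xbp1 (0.0324), Aldh1l2 (0.0323), Psat1 (0.0449) and Phgdh (0.0324) passed 0.05 after scaling.

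Every library of Hrd1 KO lay above every WT library in 5 of the 9 tested members as deposited (Retn, Vegfa, Fgf21, Gdf15 and Lep), against 51.1% of all genes, and 0 lay below in every library, against 5.79%. After scaling the same 5 lay above, against 21.1% of all genes, and Adipoq, Nrg4 and Angptl4 lay below, against 23.7%. For Sel1L KO, Vegfa, Fgf21 and Gdf15 lay above WT on both scales, against 17.7% of all genes as deposited and 12.8% scaled. Adipoq lay below after scaling, against 13.9%, and 0 members did so as deposited, against 8.43%. Fgf21 and Gdf15 were tested only because of their knockout libraries. Of the 7 others, 3 lay above WT in Hrd1 KO and 1 in Sel1L KO on either scale, and the counts are not read as particular to the members.

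As deposited, library 1 labelled Sel1L KO held the highest of the 8 values for 3 members and the lowest for 2, and the other libraries held 0 to 3 such extremes each. After scaling it held 4, as did Hrd1 KO library 1, in which Adipoq, Cfd and Nrg4 were then lowest and Vegfa highest. Sel1L KO library 1 also read 387 FPKM for Ppargc1a, the coactivator of mitochondrial and thermogenic genes, against 4.13 to 14.4 in the 7 others. It read 286 for Dio2, the thyroid hormone deiodinase of active brown fat. Dio2 read 33.5 to 41.6 in WT and 4.69 to 13.2 in the other knockout libraries. Whether the state of that mouse or of its tissue moved the members was not tested.

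The 2 knockouts were compared directly as well. No member passed 0.01 or 0.05 between them. The difference of Hrd1 KO from Sel1L KO was -0.19 for Fgf21 (interval -3.78 to 3.40) and turned to 1.52 without Sel1L KO library 1. It was 1.04 for Gdf15 (interval -1.88 to 3.97) and 2.48 without that library, with an adjusted p of 0.159. For Angptl4 it was -1.06 (interval -2.29 to 0.17) and -0.56 without Sel1L KO library 1, and it ranged from -1.75 to -0.38 over all left-out libraries. After scaling, the difference of Angptl4 was -1.41 (interval -2.72 to -0.11, adjusted p = 0.458 in limma). For Lep it was 1.85 (interval -0.99 to 4.68) and 0.31 without that library (adjusted p = 0.640). Nrg4 differed by 0.19 and Adipoq by 0.12, and both turned negative after scaling, to -0.17 and -0.23. These intervals leave room for differences of over 2-fold in Lep, Fgf21, Gdf15 and Angptl4. As deposited, those of Retn (0.48 to 2.06), Vegfa (0.41 to 1.17) and Cfd (-0.31 to 1.25) do so as well. After scaling, those of Retn (0.007 to 1.83) and Cfd (-0.80 to 1.04) still did, whereas that of Vegfa (0.08 to 0.79) did not.

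The median change of the 9 tested members was 0.99 in Hrd1 KO against 0.42 for all genes, 0.13 in Sel1L KO against 0.09, 0.47 between the knockouts against 0.30, and 0.60 for both knockouts against 0.26. After scaling these medians were 0.54, 0.03, 0.12 and 0.32. In each of the 4 comparisons, 5 of the 9 exceeded the all-gene median. These medians include Fgf21 and Gdf15, which passed the filter only through the knockout libraries and whose fitted values depend on the pseudocount. A filter of 1 FPKM in every library removes both. The median was then 0.35 in Hrd1 KO against 0.37 for all genes, and -0.12 in Sel1L KO against 0.09. It was 0.47 between the knockouts against 0.27, and 0.11 for both knockouts against 0.23.

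The receptors through which the members act were also measured in the tissue. Of 16 receptors and co-receptors, 12 were tested and 0 passed either threshold in the comparisons with WT, with a median change of 0.28 in Hrd1 KO and 0.06 in Sel1L KO. The adiponectin receptors Adipor2 and Adipor1 were the most abundant, at 173 to 200 and 49.8 to 54.6 FPKM in WT. Nrp1, a co-receptor of VEGF, read 36.2 to 37.0 in WT and lower in all 5 knockout libraries, at 12.9 to 33.6, without passing either threshold (adjusted p = 0.334 over both knockouts). Klb, the co-receptor that gives tissues their response to FGF21, read 7.62 to 8.93 in WT and 7.92 to 11.2 in the knockout libraries. Its partner Fgfr1 read 12.1 to 19.9 in WT and 13.7 to 22.3 in the knockout libraries. Gfral was listed at 0 in all 8 libraries, and Lepr read at most 0.14. Of the 2 listed ERBB receptors, Erbb3 read 0.34 to 0.60 in WT and 0.22 to 1.64 in the knockout libraries. Erbb4 read 0.30 to 0.61 in WT and 0.56 to 0.84 in the knockout libraries and was not tested.

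Of 28 other secreted factors of fat, 20 were tested and 0 passed 0.01 in any comparison. Metrnl (meteorin-like, a factor of muscle and fat) read 2.92 to 4.66 FPKM in WT and 8.20 to 12.2 in the 5 knockout libraries. Its change was 1.65 in Hrd1 KO (adjusted p = 0.0142) and 1.24 in Sel1L KO (adjusted p = 0.0435). Epdr1, which encodes a secreted protein of brown adipocytes, read 0.48 to 0.81 in WT and 2.06 to 3.60 in the knockout libraries, with changes of 2.22 (adjusted p = 0.0227) and 2.05 (adjusted p = 0.0394). For both genes every knockout library lay above every WT library. Of all genes, 51.1% did so in Hrd1 KO and 17.7% in Sel1L KO. Igf1, insulin-like growth factor 1, read 7.90 to 12.2 in WT and 25.4 and 19.5 in Hrd1 KO, with a change of 1.08 (adjusted p = 0.0488).

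Retnla, a relative of resistin made by macrophages and adipose stroma, read 1.57 to 7.43 FPKM in WT, 36.0, 12.6 and 23.5 in the libraries labelled Sel1L KO and 9.56 and 18.9 in those labelled Hrd1 KO, with an adjusted p of 0.0444 over both knockouts. Of the most abundant others in WT, Gpx3, the plasma glutathione peroxidase, read 883 to 1658 in WT and 1478 to 2008 in the knockout libraries. Nampt, the enzyme that recycles nicotinamide, read 160 to 191 in WT, 131 to 171 in Sel1L KO and 111 and 117 in Hrd1 KO, with a change of -0.64 in Hrd1 KO (adjusted p = 0.0625). Rbp4, the retinol carrier, read 59.1 to 69.1 in WT, 20.3, 16.6 and 27.8 in Sel1L KO and 29.2 and 62.5 in Hrd1 KO, with a change of -1.62 in Sel1L KO (adjusted p = 0.0524). C1qtnf12, an adiponectin relative, read 49.6 to 61.5 in WT, 25.2 to 30.1 in Sel1L KO (adjusted p = 0.0845) and 31.1 and 58.0 in Hrd1 KO (adjusted p = 0.354). After scaling, Metrnl and Epdr1 alone of the 20 passed 0.05, over both knockouts.

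**Figure D4:**
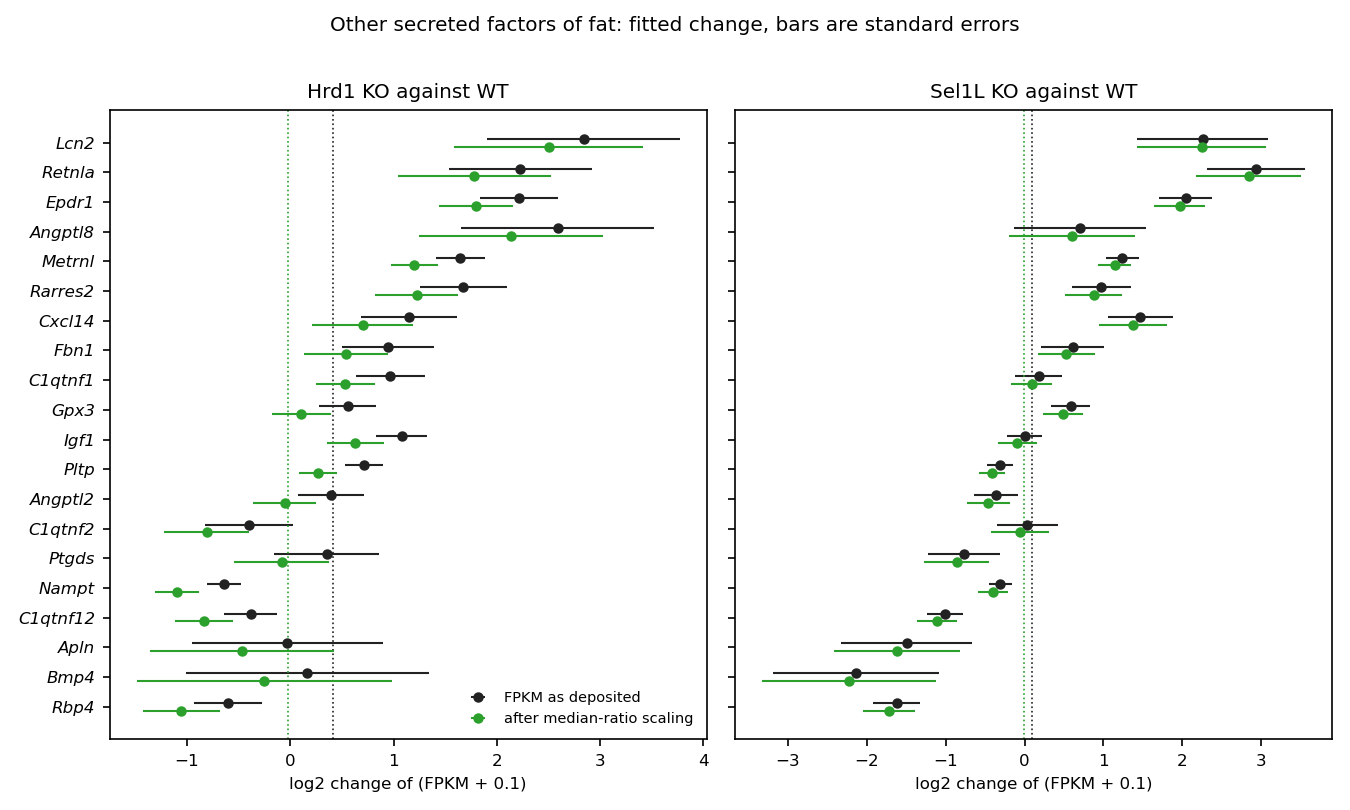
Fitted change in log2(FPKM + 0.1) on the horizontal axis, with bars of 1 standard error, of the 20 tested other secreted factors in Hrd1 KO and Sel1L KO against WT, as deposited (black) and after scaling (green); dotted lines mark the median of all genes on each scale. Epdr1 and Metrnl lie above both lines in both panels, and Rbp4 and Nampt lie below them.

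As deposited, summed levels of macrophage and of fibroblast markers were higher in every knockout library than in WT. Of all genes, 51.1% lay above every WT library in Hrd1 KO and 17.7% in Sel1L KO in this way. In bulk tissue, fewer cells of a type and less RNA per cell cannot be told apart. The summed level of 6 macrophage markers was 22.5 to 30.0 FPKM in WT and 45.9 to 72.6 in the knockout libraries, and that of 4 fibroblast and progenitor markers 54.5 to 81.4 and 110 to 126. Cd14 (5.43 to 8.78 in WT, 5.29 to 17.8 in the knockout libraries) overlapped WT, as did Pdgfra in Sel1L KO library 1. The other markers of both lists lay above WT in every knockout library, and Lyz2 was the largest part of the macrophage sum. Lyz2 (adjusted p = 0.0380), Col1a1 (adjusted p = 0.0183) and Cd34 (adjusted p = 0.0320) passed 0.05 in Hrd1 KO as deposited, and none of the 3 did after scaling (adjusted p = 0.311, 0.0847 and 0.132). In Sel1L KO, Lyz2 alone of these lists passed 0.05 as deposited (adjusted p = 0.0235) and did not after scaling (adjusted p = 0.0798). The sum of 4 endothelial markers was 58.4 to 80.0 in WT, 58.9 to 102 in Sel1L KO and 93.1 and 116 in Hrd1 KO, with 0 of the 4 past either threshold. The part of these markers in Retn, Vegfa, Lep and the stress hormones was not tested.

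The sum of 8 skeletal muscle markers was 2.08 to 5.82 FPKM in WT, 79.4, 10.6 and 1.39 in the libraries labelled Sel1L KO and 392 and 15.7 in those labelled Hrd1 KO, with 0 of 6 tested past either threshold. Vegfa, which muscle also makes, was highest in the Hrd1 KO library 1 with that high sum, and its part in the value was not tested. Fgf21 and Gdf15 were higher in Hrd1 KO library 2 than in library 1, and highest in Sel1L KO library 1, whose muscle sum was 79.4. The part of muscle in them was not tested either. The sum of 4 lymphocyte markers was 0.29 to 1.5 FPKM, and the 9 brown adipocyte markers summed to 23581 to 25546 in WT and 17659 to 23309 in the knockout libraries, with 0 of the 9 past either threshold against WT. Of 6 adipocyte transcription factors 0 passed either threshold against WT. Xist read at most 0.01 FPKM and 4 Y-linked genes were present in all 8 libraries.

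For each tested member, the 2 genes with the most similar profile across the 8 libraries were taken by Pearson's r of scaled log2 values. These were Gadd45a (r = 0.991) and Srm (r = 0.987) for Fgf21, Gadd45a (r = 0.990) and Eme2 (r = 0.990) for Gdf15, and Fam13c (r = 0.994) and Msx1 (r = 0.991) for Lep. Angptl4 was closest to Suz12 (r = 0.984) and Syncrip (r = 0.976), and Adipoq to Mrpl42 (r = 0.986) and 0610012G03Rik (r = 0.981). Vegfa was closest to Nid2 (r = 0.961) and Tenm2 (r = 0.950), Retn to Sfswap (r = 0.966) and Mindy1 (r = 0.954), Cfd to Sys1 (r = 0.974) and Wdr18 (r = 0.951), and Nrg4 to Cdk17 (r = 0.979) and 1110065P20Rik (r = 0.965). These values are the highest of 12473 genes over 8 points that include Sel1L KO library 1, and no test was attached to them.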

How the data were processed

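RNA was extracted from snap-frozen tissue with TRIzol and polyA-enriched libraries were made. Per the labels and the study's methods, the authors mapped reads to GRCm38 with STAR 2.7.8a, estimated gene abundance with RSEM 1.3.3 and checked reads with FastQC 0.11.8. The authors deposited FPKM values per gene and library, so an abundant gene can shift all others. Cultured cell libraries of the series were not used here.

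For the tests, log2(FPKM + 0.1) was fitted in limma 3.58.1 (R 4.3.3) by eBayes with a variance trend. The 12473 genes that reached 1 FPKM in 2 or more of the 8 libraries entered, with all 3 groups in the same model and Benjamini-Hochberg adjustment. The study's test on estimated counts was not repeated, because FPKM are not counts. The fit was tested on simulated data with known changes in Hrd1 KO against WT. Of 100 genes changed by 1 log2, 2 were called at 0.01 and 9 at 0.05. Of 100 changed by 2 log2, 39 and 51 were called, so an uncalled member may still differ. Data were handled with data.table (version 1.17.8), pandas 2.3.3 and NumPy 2.4.6 in Python 3.11.15, and plotted with matplotlib 3.10.9. Coordinates come from the GRCm38 annotation.

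Groups came from the genotype labels. Replicates within a group correlated at 0.874 to 0.955 and shared at most 1.40% identical values, so each library counted as 1 sample. The labels do not say whether litters or days were shared, so p-values measure the spread between these mice only. The members, gene lists, markers and tests were chosen with earlier results of these data known. Named genes were all members, the targeted genes, list genes past a threshold or among the most abundant of their list in WT, genes that a sentence singles out after its values were seen, and the 2 most similar genes per member. Alternatives were other pseudocounts, filters, scalings, thresholds and model settings, the replicate number as a block, and leaving out each library. Promoter motifs and protein sequences were not analysed here.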

Additional observations from a re-analysis of the deposited data

Results flagged for a closer look

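Bmp8b lay on opposite sides of the WT mean (0.0833 FPKM) in the 2 knockouts, with 0, 0 and 0.03 FPKM in the 3 libraries labelled Sel1L KO and 0.10 and 0.16 in the 2 labelled Hrd1 KO. The difference was not tested, because the gene did not reach the filter on low values.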

How the results depend on the processing

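As deposited and with adjusted p under 0.01, 0 members were called in any comparison. Fitting only the 2 groups compared called 1 member in Hrd1 KO against WT (Gdf15, adjusted p = 0.00971), and a threshold of 0.05 called 2 there and 3 for both knockouts. Leaving out each library in turn gave 0 to 3 called members in Hrd1 KO and 0 to 2 for both knockouts, with every call made without Sel1L KO library 1. Leaving it out and scaling, a choice made after seeing the data, called 1 for both knockouts (Fgf21, adjusted p = 0.00903). Among all genes, Hrd1 KO against WT gave 36 higher and 10 lower as deposited, 0 and 5 after median-ratio scaling, 8 and 10 after quantile normalization, 193 and 20 with only the 2 groups, and 727 and 48 without Sel1L KO library 1. For both knockouts it gave 40 and 5 as deposited, 549 and 69 without that library, and 124 and 82 without it and with scaling. Leaving out each other library gave 0 to 22 higher there.

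The median member change in Hrd1 KO fell from 0.99 to 0.54 with scaling, to 0.35 with a filter of 1 FPKM in every library, which removes Fgf21 and Gdf15, and to 0.54 with scaling and without Sel1L KO library 1. With that filter the median of all genes in Hrd1 KO was 0.37. The member median in Sel1L KO was then -0.12 in place of 0.13, against 0.09 for all genes. Between the knockouts the median was 0.47 as deposited, 0.12 with scaling, and 0.12 to 0.90 when 1 library was left out.

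Of the single members, scaling turned the sign of Nrg4 (-0.44) and Cfd (-0.10) in Hrd1 KO, Adipoq (-0.23) and Nrg4 (-0.17) between the knockouts, and Cfd (-0.16) over both. Quantile normalization turned Nrg4 in Hrd1 KO (-0.20) and Cfd in Sel1L KO (0.19). Scaling without Sel1L KO library 1 gave -0.44 for Nrg4 and -0.11 for Cfd in Hrd1 KO, -0.56 for Angptl4 and 1.09 for Lep in Sel1L KO, -0.32 for Adipoq, 1.25 for Fgf21 and -0.077 for Nrg4 between the knockouts, and -0.31 for Cfd over both. Leaving out 1 library moved Nrg4 in Hrd1 KO between -0.085 and 0.079 and Cfd between -0.081 and 0.78. It moved Angptl4 in Sel1L KO between -0.38 and 0.46, Lep between -1.18 and 1.27 and Cfd between -0.34 and 0.13. Between the knockouts the ranges were -0.053 to 0.29 for Adipoq and -1.83 to 1.52 for Fgf21, and over both knockouts -0.10 to 0.36 for Cfd.

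No pairing of the libraries by replicate number was seen. Deviations from the group means correlated at -0.06 to 0.08 in the 7 same-numbered pairs, against -0.09 to 0.06 in 14 differently numbered pairs. Deviations within a group sum to 0 and the groups are small, so these correlations cannot exclude shared litters or days. With the number as a replicate block 0 members were called, the median in Hrd1 KO was 1.02, and 0 genes were called higher and 5 lower. With 2 libraries labelled Hrd1 KO and unknown read depth, genes near 0 such as Bmp8b could not be compared.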
